A study of Mus musculus with 21 samples.

Results

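The mouse Hist1 cluster, the main chromosomal array of replication-dependent histone genes, was examined in nucleotide-resolution binding maps of the splicing factors SRSF3 and SRSF7. Positions on either strand were taken from 2 windows of build mm9, a proximal one at chr13:21800000-22140000 and a distal one at chr13:23620000-23860000. Positions of all 6 deposited lists that lay within 200 nt of each other on the same strand were joined into 1 unit, and 144 of the 141577 units of the genome fell in these windows. The proximal window held 78 units and the distal window 66, with 72 on each strand. Units were numbered by their mean share over the 6 lists, so unit 1 had the highest mean, though not the highest share in every list.

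Replication-dependent histone genes encode the core histones H2A, H2B, H3 and H4 and the linker histone H1, and they are expressed mainly in S phase. Their transcripts have no introns and end in a conserved stem-loop in place of a poly(A) tail. SRSF3 and SRSF7 are SR proteins, which bind RNA through an RNA-recognition motif, act in splicing and shuttle to the cytoplasm. Both are known to promote export of intronless histone mRNA. Genes for tRNAs, the short adaptors of translation that RNA polymerase III transcribes, lie among the histone genes.

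The maps came from P19 cells, a mouse embryonal carcinoma line, that expressed SRSF3-GFP or SRSF7-GFP. Cells were crosslinked with ultraviolet light, separated into chromatin, nucleoplasm and cytoplasm, and carried through iCLIP, in which the end of a cDNA marks the crosslinked nucleotide. The 21 samples formed 6 groups, with 4 replicates for each fraction of SRSF3-GFP cells and 3 for each fraction of SRSF7-GFP cells. All groups carried a GFP fusion and none was left without a tagged protein, so background could not be subtracted. The sources used here do not give the promoter that drives each fusion. Each list pools the replicates of its group, so the spread between them is unknown and no p-value is given. The intervals below are 95% intervals of counting error only. Every value is a share of the cDNAs in a list of called positions. A higher share can come from more binding per RNA or from more of that RNA in the fraction. It can also come from fewer cDNAs of other RNAs in the list. These cannot be told apart here.

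The lists held between 248498 cDNAs (SRSF7 chromatin) and 1768665 cDNAs (SRSF3 chromatin). Between 581 (SRSF7 chromatin) and 5727 (SRSF3 cytoplasm) of them lay in the windows. Of the 144 units, 47 were listed in all 6 lists, 39 in a single list, and 89 reached 20 cDNAs in all lists together. Over the genome, 17135 of the 141577 units reached 20 cDNAs. The genome's counts of units in all 6 lists or in a single list are not given here, so 47 and 39 cannot be read as low or high. All units together covered 17959 nt.

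The windows held more than histone-sized units. Units spanned 1 to 813 nt, with a median of 74.5 nt. Units of at most 110 nt numbered 96, those of 111 to 249 nt numbered 24, and those of at least 250 nt numbered 24. These span classes were set after the data had been seen. For scale, RefSeq (assembly GRCm38.p6) lists 23 histone genes and 31 tRNA genes between H2bc13 and H2bc11, and 29 histone genes and no tRNA gene between H4c8 and H1f1. It also lists 10 other genes in the first stretch and 5 in the second. The tRNA genes of the first stretch are 72 to 106 nt long, and the histone genes have median lengths of 478 and 504 nt. No mm9 annotation or genome was used here, so the units are given by coordinate, without a gene name or bound sequence. A short unit can be a tRNA, a short bound stretch of a histone mRNA or part of another RNA, and a longer unit need not be a histone mRNA. How reads that fit several near-identical histone or tRNA copies were counted is not given in the sources used here, and a unit's cDNAs may be split among copies.

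For both proteins, RNA of the Hist1 windows made up several times more of the nucleoplasm and cytoplasm lists than of the chromatin list. The chromatin share was 0.274% for SRSF3 (0.266 to 0.282) and 0.234% for SRSF7 (0.215 to 0.254). The nucleoplasm share was 1.57% for SRSF3 (1.53 to 1.61), while SRSF7 had 1.10% (1.06 to 1.14). The cytoplasm share was 2.23% for SRSF3 (2.17 to 2.29), while SRSF7 had 1.19% (1.15 to 1.22). Both proteins thus had their lowest share in chromatin, and none of the chromatin intervals reached those of the other fractions.

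**Figure D1:**
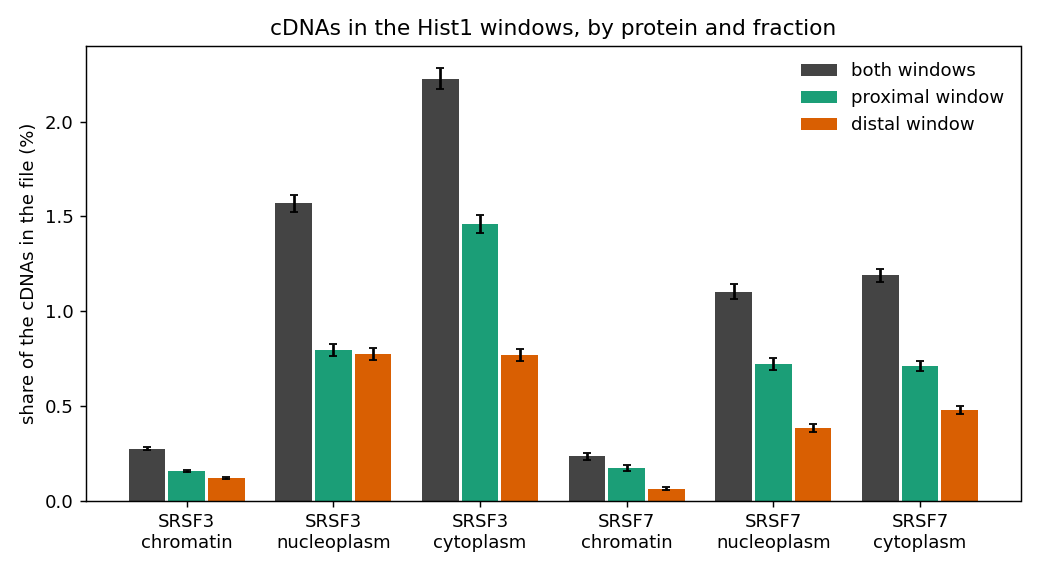
Share of each list's cDNAs (%) that lay in both Hist1 windows, in the proximal window and in the distal window, for each protein and fraction. Each bar is 1 pooled list and the error bars are exact 95% intervals of counting error. The chromatin bars of both proteins are the lowest, and the SRSF3 cytoplasm bar of the proximal window stands well above that of the distal window.

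The share of SRSF3 cDNAs rose 8.13-fold from chromatin to cytoplasm (7.83 to 8.45) and 5.73-fold from chromatin to nucleoplasm (5.50 to 5.96). The share of SRSF7 cDNAs rose 5.08-fold from chromatin to cytoplasm (4.66 to 5.55) and 4.71-fold from chromatin to nucleoplasm (4.31 to 5.16). These sizes moved with the processing. With bound positions in place of cDNAs the SRSF7 rises were 2.22-fold and 1.87-fold, and with at least 3 cDNAs a position they were 11.7-fold and 11.9-fold. The SRSF3 rise to cytoplasm was 13.4-fold when mitochondrial RNA and the 10 highest units were left out. The step from nucleoplasm to cytoplasm was small by comparison. It was 1.42-fold (1.37 to 1.48) in the SRSF3 lists and 1.08-fold (1.03 to 1.13) in the SRSF7 lists. The SRSF7 step was not seen when only positions with at least 3 cDNAs were kept. The log2 ratio of nucleoplasm over cytoplasm was then 0.03, and its interval (-0.06 to 0.11) included 0.

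The windows held a similar number of SRSF3 cDNAs in every fraction (4845 for chromatin, 4950 for nucleoplasm, 5727 for cytoplasm), while the lists themselves differed in size. For SRSF7 the windows held 581, 3029 and 4366 cDNAs in the same order. The cDNAs were concentrated in the windows and not in the stretch between them. SRSF3 chromatin had 8.35 cDNAs per kb in the windows and 1.23 per kb in between, and SRSF3 cytoplasm had 9.87 and 0.919 per kb. SRSF7 cytoplasm had 7.53 cDNAs per kb in the windows and 0.621 per kb in between.

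The windows behaved differently for the 2 proteins. From nucleoplasm to cytoplasm, the SRSF3 share of the proximal window rose 1.84-fold (1.74 to 1.93), from 0.795% to 1.46%, while that of the distal window was 0.774% and 0.768%, a ratio of 0.993 (0.935 to 1.05). The ratio of these folds was 1.85 (1.71 to 2.0). For SRSF7 the order was the opposite. The distal share rose 1.25-fold (1.16 to 1.35), from 0.382% to 0.478%, and the proximal share was 0.719% and 0.710%, a ratio of 0.988 (0.931 to 1.05). Unit 1 lies in the proximal window, and without it the SRSF7 proximal share also rose 1.25-fold from nucleoplasm to cytoplasm, while the SRSF3 proximal share rose 1.61-fold. The contrast between the windows therefore held without unit 1 for SRSF3, with a ratio of folds of 1.62 (1.5 to 1.76), and did not for SRSF7, with a ratio of 0.999 (0.899 to 1.11) for nucleoplasm over cytoplasm.

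Binding was spread over many units, with a few strong ones. Unit 1 took 2.39% of the windows' cDNAs in SRSF3 chromatin, 4.77% in SRSF3 nucleoplasm, 13.5% in SRSF3 cytoplasm, 7.92% in SRSF7 chromatin, 24.3% in SRSF7 nucleoplasm and 12.1% in SRSF7 cytoplasm. The 15 leading units together held 36.4% in SRSF3 chromatin and between 45.6% and 61.5% in the other lists. Of these 15 units, 3 belonged to the class of at most 110 nt, 5 to the class of 111 to 249 nt and 7 to the class of at least 250 nt. The 15 units were ranked by the mean over all lists. The values therefore do not compare how concentrated the lists were by their own leading units.

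**Figure D2:**
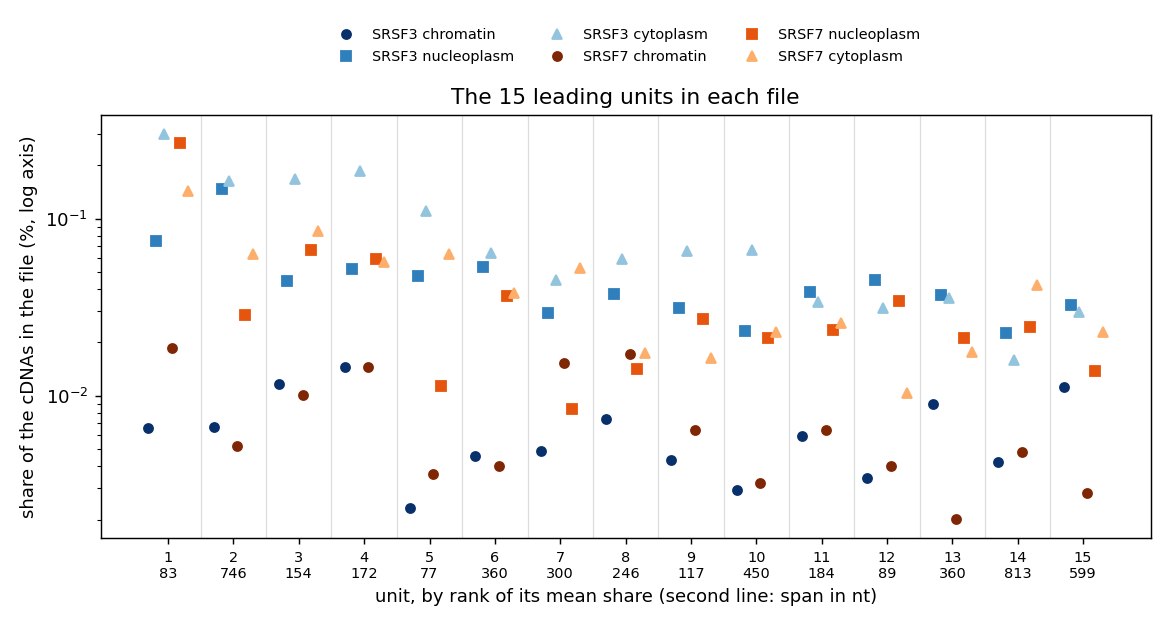
Share of each list's cDNAs (%, log axis) in each of the 15 leading units, with 1 marker per protein and fraction, and the span of the unit in nt under its number. In nearly every unit the round chromatin markers lie below the others, the exception being units 7 and 8, where SRSF7 nucleoplasm lies below SRSF7 chromatin.

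Unit 1, an 83-nt unit on the minus strand at chr13:22113017-22113099, held 116, 236 and 771 SRSF3 cDNAs and 46, 735 and 528 SRSF7 cDNAs, in the order chromatin, nucleoplasm, cytoplasm that is kept below. The SRSF3 counts amounted to 0.00656%, 0.0748% and 0.300% of their lists, and the SRSF7 counts to 0.0185%, 0.267% and 0.144%. SRSF3 thus had its highest share in cytoplasm and SRSF7 its highest in nucleoplasm. In nucleoplasm the SRSF3 share was 3.57 times lower than that of SRSF7, a log2 ratio of -1.84 (-2.05 to -1.62), and no other unit of the windows was called lower in that comparison.

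Unit 2, a 746-nt unit on the plus strand of the distal window at chr13:23673670-23674415, held 118, 462 and 418 SRSF3 cDNAs. Its SRSF7 cDNAs numbered 13, 79 and 232. The SRSF3 share was nearly as high in nucleoplasm (0.146%) as in cytoplasm (0.163%), and the SRSF7 share was 0.0287% in nucleoplasm and 0.0632% in cytoplasm. Both proteins were low in chromatin here, with shares of 0.00667% and 0.00523%.

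Units 3 and 4 resembled each other in size and in their fraction pattern. Unit 3 (154 nt, minus strand, chr13:22027299-22027452) held 205, 140 and 431 SRSF3 cDNAs, and 25, 183 and 314 SRSF7 cDNAs. Unit 4 (172 nt, plus strand, chr13:21998973-21999144) held 258, 164 and 477 SRSF3 cDNAs, and 36, 163 and 208 SRSF7 cDNAs. In both units SRSF3 was highest in cytoplasm by far, with shares of 0.168% and 0.186%, against 0.0444% and 0.0520% in nucleoplasm. The SRSF7 shares of nucleoplasm and cytoplasm lay closer together, at 0.0665% and 0.0855% in unit 3 and at 0.0593% and 0.0566% in unit 4.

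Unit 5 (77 nt, plus strand, chr13:23626147-23626223) was a cytoplasmic unit for both proteins. It held 41, 150 and 282 SRSF3 cDNAs, and 9, 31 and 233 SRSF7 cDNAs. The shares in cytoplasm were 0.110% for SRSF3 and 0.0634% for SRSF7. The rise of its SRSF3 share from chromatin to cytoplasm, 47.3-fold, was the largest among the compared units of the windows.

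Units 6 to 15 had shares between 0.00201% and 0.0661%. Unit 7 (300 nt, minus strand, chr13:22085816-22086115) stood apart in SRSF7, with 38, 23 and 194 cDNAs. Its SRSF3 cDNAs numbered 86, 93 and 116. Unit 8 (246 nt, plus strand, chr13:22011121-22011366) held 43, 39 and 64 SRSF7 cDNAs, and its SRSF7 share differed little between chromatin (0.0173%) and cytoplasm (0.0174%). The interval of that ratio included equality. Unit 12 (89 nt, plus strand, chr13:23623233-23623321) had its highest share in nucleoplasm for both proteins, as no other short unit among the leading 15 did, with 61, 142 and 80 SRSF3 cDNAs and 10, 94 and 38 SRSF7 cDNAs. Unit 15 (599 nt, minus strand, chr13:23836522-23837120) held 199, 103 and 76 SRSF3 cDNAs, and its SRSF3 share was nonetheless lowest in chromatin, at 0.0113%.

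Each unit was then compared between lists wherever it held at least 50 cDNAs in both lists together and 10 in each, and it was called when the interval of the ratio lay beyond 2-fold. For SRSF3, 53 units could be compared between chromatin and cytoplasm. Of these, 40 were lower in chromatin and 0 higher, where 51.7% of the 906 units compared over the genome were lower and 12.9% higher. The median log2 ratio was -2.78 in the windows and -1.67 over all units, and all 53 ratios lay below 0. Unit 5 had the lowest ratio, with a log2 value of -5.56 (-6.07 to -5.09), followed by unit 1 at -5.51 (-5.81 to -5.23). Unit 14 (813 nt, plus strand, chr13:23646903-23647715) was the least changed of the called units, with 75 cDNAs in chromatin, 41 in cytoplasm and a log2 ratio of -1.91 (-2.48 to -1.32). The minimum of 10 in each list left out 1 unit with at least 50 cDNAs in chromatin and 0 in cytoplasm. With 20 cDNAs in both lists together and no minimum in each, 1 of 75 units was higher in chromatin and 46 were lower. Over the genome 29.1% were then called, higher and lower together.

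Between SRSF3 chromatin and nucleoplasm, which shares the chromatin list with the comparison above, 49 of 56 units were lower in chromatin and 0 higher, against 37.4% lower and 6.29% higher of 1622 units over the genome. The median log2 ratio was -2.56 in the windows and -0.96 over all units, and all 56 ratios lay below 0. Unit 2 had the lowest ratio, at -4.46 (-4.76 to -4.16), and unit 15 the highest among the called ones, at -1.54 (-1.89 to -1.18). Counting cDNAs in lists thinned to the smallest total lowered the numbers of called units to 13 for cytoplasm and 16 for nucleoplasm, since fewer units then reached the minimum.

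Fewer SRSF7 units could be compared with chromatin, because that list held only 581 cDNAs in the windows. Of 14 units, 9 were lower in chromatin than in cytoplasm and 0 higher, where 15.3% of 660 units over the genome were lower and 28.2% higher. The median log2 ratio was -1.99 in the windows and 0.21 over all units, and all 14 lay below 0. Unit 2 had the lowest ratio, with 13 cDNAs against 232 and a log2 value of -3.59 (-4.52 to -2.79), and unit 7 the least low of the called ones, at -1.79 (-2.33 to -1.28). Against nucleoplasm, 9 of 14 units were lower in chromatin and 0 higher, where 19.4% of 742 units over the genome were lower and 18.5% higher. Unit 1 had the lowest ratio, with 46 cDNAs against 735 and a log2 value of -3.85 (-4.31 to -3.42), and unit 11 (184 nt, plus strand, chr13:22128056-22128239) the least low, at -1.88 (-2.76 to -1.07). The median was -2.06 in the windows and -0.54 over all units, and 12 of the 14 ratios lay below 0.

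Of the 14 units compared with cytoplasm for both proteins, 9 were lower in chromatin for both and 0 were called in opposite directions. Over the genome 445 units were compared for both, of which 15.3% were lower for both and 5.39% were called in opposite directions. Against nucleoplasm the windows gave the same numbers, 9 and 0 of 14, where 10.7% and 1.81% of 552 units over the genome did so.

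Between nucleoplasm and cytoplasm most units stayed within 2-fold. For SRSF3, 7 of 51 units were lower in nucleoplasm and 1 was higher, against 11.1% lower and 13.4% higher of 898 units over the genome, so the first count (13.7%) lay near the background and the second (1.96%) below it. Unit 27 (72 nt, minus strand, chr13:22107670-22107741) had the lowest ratio, with 12 cDNAs in nucleoplasm and 54 in cytoplasm and a log2 value of -2.47 (-3.50 to -1.54). Unit 25 (529 nt, minus strand, chr13:21807530-21808058) was the higher one, with 134 cDNAs in nucleoplasm and 35 in cytoplasm, and a log2 value of 1.64 (1.10 to 2.22). For SRSF7, 3 of 39 units were lower in nucleoplasm and 1 was higher, against 16.7% lower and 22.9% higher of 992 units. Unit 7 was the lowest, at -2.66 (-3.35 to -2.03), and unit 12 the higher one, at 1.72 (1.17 to 2.31). Of 38 units compared for both proteins, 1 was lower in nucleoplasm for both and 0 were called in opposite directions, where 7.13% and 0.375% of 533 units over the genome did so.

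**Figure D3:**
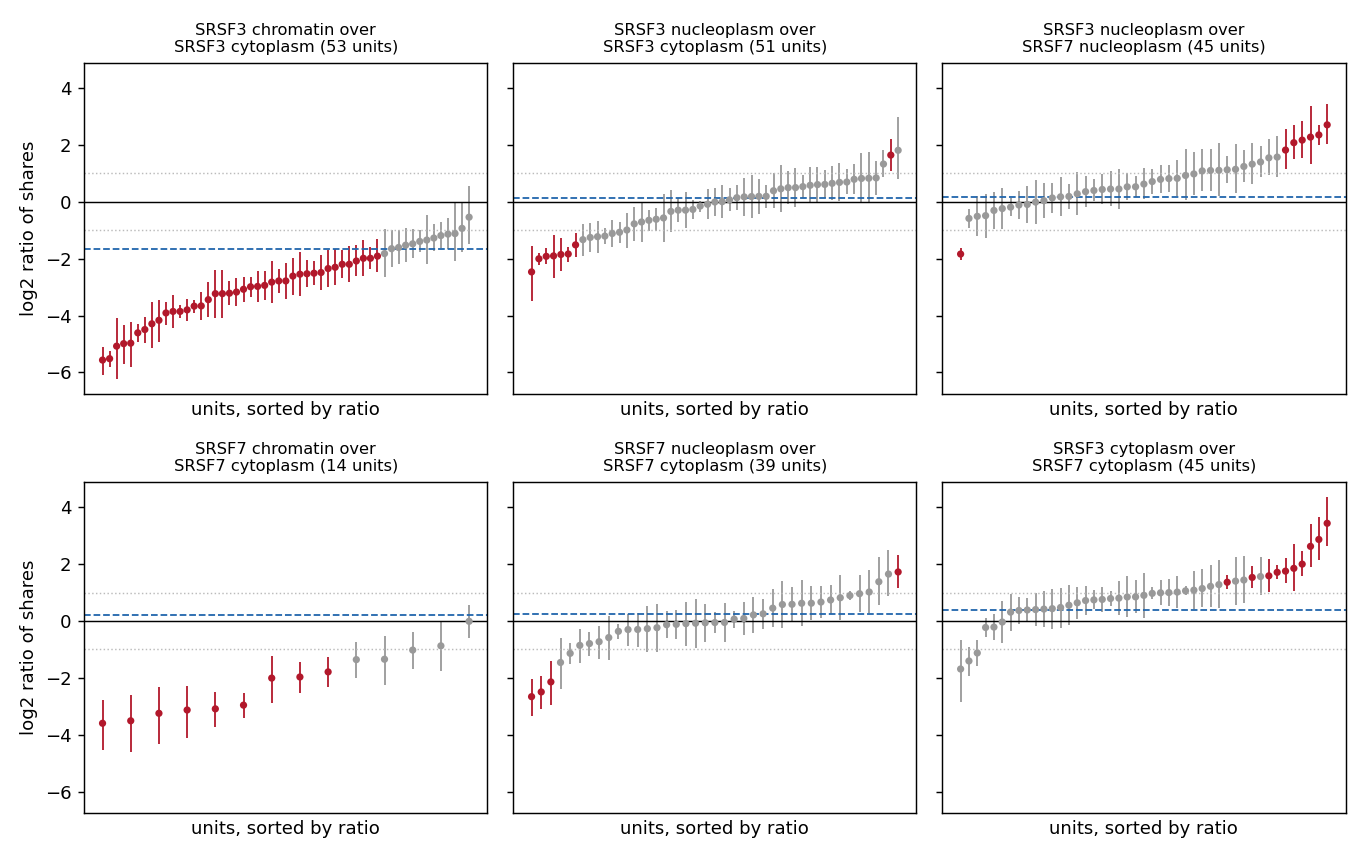
Log2 ratio of shares for each compared unit of the windows, sorted within each panel, with 95% counting intervals as vertical lines. Red units lie beyond 2-fold (dotted lines) by their interval, the dashed blue line is the median over all units of the genome, and the black line is equality. All 53 SRSF3 ratios of chromatin over cytoplasm lie below 0, and the ratios of nucleoplasm over cytoplasm scatter around 0 for both proteins.

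SRSF3 placed more of its cDNAs in the windows than SRSF7 in nucleoplasm and cytoplasm. The nucleoplasm ratio of the SRSF3 share over the SRSF7 share was 1.42 (1.36 to 1.49), and the cytoplasm ratio was 1.87 (1.80 to 1.95). In nucleoplasm the ratio lost its call with positions of at least 3 cDNAs, at a log2 ratio of 0.04. In chromatin the ratio was 1.17 (1.07 to 1.28). It lost its call when the mitochondrial genome and the 10 units of highest share were left out of the totals. The log2 ratio was then -0.11 (-0.23 to 0.02). With every position given the same weight its direction turned, to a log2 ratio of -0.88 (-1.04 to -0.72). The headers of the SRSF7 lists describe the treatment of regions in peak calling differently from those of SRSF3, and the part of this in the protein ratios was not tested.

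By unit, 6 of 45 units were higher for SRSF3 and 1 lower in nucleoplasm, against 16.1% higher and 15.7% lower of 898 units over the genome. In cytoplasm 10 of 45 were higher and 0 lower, against 17.7% higher and 10.6% lower of 809 units. In chromatin 0 of 18 were higher and 3 lower, against 6.56% higher and 26.9% lower of 1112 units. The counts of units higher for SRSF3 thus lay near the background. The median log2 ratios of SRSF3 over SRSF7 were 0.62 in nucleoplasm, 0.90 in cytoplasm and -0.35 in chromatin, beside 0.15, 0.37 and -0.58 over all units. In chromatin the minimum of 10 in each list left out 4 units with at least 50 SRSF3 cDNAs and 0 SRSF7 cDNAs. With 20 cDNAs in both lists together and no minimum in each, 5 of 69 units were higher for SRSF3 in chromatin and 4 lower. Over the genome 18.7% were then called, higher and lower together.

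The units called higher for SRSF3 were of all spans. Unit 29 (87 nt, minus strand, chr13:21988747-21988833) held 23, 60 and 106 SRSF3 cDNAs, but only 3, 0 and 14 SRSF7 cDNAs. Its cytoplasmic log2 ratio of 3.44 (2.63 to 4.35) was the highest of the windows. Unit 18 (161 nt, minus strand, chr13:23653720-23653880) held 145, 157 and 51 SRSF3 cDNAs and 12, 21 and 33 SRSF7 cDNAs, with the highest nucleoplasmic log2 ratio, 2.70 (2.04 to 3.44). Unit 2 was higher for SRSF3 in both fractions, with log2 ratios of 2.35 (2.0 to 2.71) for nucleoplasm and 1.36 (1.13 to 1.60) for cytoplasm.

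The ratio of SRSF3 to SRSF7 in unit 32 changed with the fraction. This 79-nt unit on the plus strand (chr13:22003176-22003254) held 39, 40 and 82 SRSF3 cDNAs and 21, 5 and 19 SRSF7 cDNAs. The log2 ratio of SRSF3 over SRSF7 was -1.94 in chromatin (-2.74 to -1.10), the lowest of that comparison, and 2.62 in cytoplasm (1.89 to 3.43). Its intervals lay on opposite sides of 0. The chromatin value rested on 21 SRSF7 cDNAs. The median log2 ratio over all units of the genome also differed between these fractions, at -0.58 in chromatin and 0.37 in cytoplasm.

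Units in SRSF3 lists alone numbered 32, which is 22.2% of the windows' units, where 65.4% of all units of the genome were. Units in SRSF7 lists alone numbered 18 (12.5%, where the genome had 22.3%). They held 236 and 127 cDNAs in all. Of the 89 units with at least 20 cDNAs, 2 were in SRSF3 lists alone (2.25%, genome 41.9%) and 1 in SRSF7 lists alone (1.12%, genome 3.34%), and these 3 are named here because of it. Unit 78 (53 nt, plus strand, chr13:22027892-22027944) held 6, 20 and 6 SRSF3 cDNAs, and unit 97 (73 nt, minus strand, chr13:23702384-23702456) held 13, 7 and 0. Unit 72 (63 nt, minus strand, chr13:21872430-21872492) held 4, 6 and 28 SRSF7 cDNAs.

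The span classes differed between the fractions, and differences between the proteins depended in part on unit 1. The share of SRSF3 in units of at most 110 nt rose 11.5-fold from chromatin to cytoplasm (10.8 to 12.3), and that in units of at least 250 nt rose 6.51-fold (6.08 to 6.97). The ratio of these folds was 1.77 (1.61 to 1.95), and 1.29 (1.16 to 1.43) without unit 1. From nucleoplasm to cytoplasm, the SRSF3 share in the short units rose 1.82-fold, and the ratio for the long units was 0.978 (0.916 to 1.04). Without unit 1 the short units still rose 1.44-fold. For SRSF7 the folds from chromatin to cytoplasm were 5.86 (5.07 to 6.80) for the short and 6.78 (5.68 to 8.14) for the long units, and these intervals overlapped. From nucleoplasm to cytoplasm, the SRSF7 ratio was 0.985 (0.917 to 1.06) for the short and 1.17 (1.07 to 1.27) for the long units. Without unit 1 the short units rose 1.51-fold for SRSF7 too. The ratio of folds of short over long units was then 1.29 (1.14 to 1.47) for SRSF7, beside 1.47 (1.33 to 1.62) for SRSF3.

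In nucleoplasm, the long units had a 2.02-fold higher share for SRSF3 than for SRSF7 (1.87 to 2.19), and the short units a ratio of 1.0 (0.929 to 1.08). That equality rested on unit 1. Without it the short units had a 1.84-fold higher share for SRSF3 (1.67 to 2.03), and the ratio of the folds of short and long units moved from 0.495 (0.444 to 0.552) to 0.912 (0.804 to 1.03). The short units held 49.1% of the proximal window's cDNAs in SRSF7 nucleoplasm and 36.3% in SRSF3 nucleoplasm, and without unit 1 the order turned, to 19.1% and 29.7%. The long units held 53.4% of the distal window's cDNAs in SRSF3 nucleoplasm and 46.7% in SRSF7 nucleoplasm.

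Some leading units had the same preferred nucleotides in every fraction and for both proteins. In unit 1 the nucleotides 41 and 72 nt from its 5′ end led in all 6 lists. Nucleotide 72 held 13, 48 and 201 SRSF3 cDNAs and 8, 110 and 110 SRSF7 cDNAs. Nucleotide 41 held 13, 39 and 130 SRSF3 cDNAs and 8, 127 and 64 SRSF7 cDNAs. Together they held between 22.4% (SRSF3 chromatin) and 42.9% (SRSF3 cytoplasm) of the unit. Nucleotide 41 exceeded nucleotide 72 only in SRSF7 nucleoplasm, the list in which the unit itself took its largest share of the windows.

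Other leading units had their own preferred nucleotides. In unit 3 the highest position lay 72 or 73 nt from the 5′ end in all 6 lists, and held between 14.1% and 28.0% of the unit. In unit 2 it lay between 123 and 134 nt from the 5′ end in all 6 lists, and held between 9.05% and 23.1% of the unit. With the 746 nt of unit 2 cut into 3 equal parts, the first held 105 of 118 cDNAs in SRSF3 chromatin. It held 459 of 462 in SRSF3 nucleoplasm and all of them in the other lists. In unit 7 the highest position lay at 42 nt in 5 of the lists. It held 55.8% of the unit in SRSF3 chromatin and 15.1% in SRSF3 nucleoplasm. In the SRSF7 lists it held 65.8% of the unit for chromatin, 47.8% for nucleoplasm and 68.0% for cytoplasm. In SRSF3 cytoplasm the highest position of unit 7 lay at 25 nt instead, with 38.8% of the unit. In unit 27, nucleotide 67 held 70.8% of the 168 SRSF7 cDNAs in cytoplasm.

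**Figure D4:**
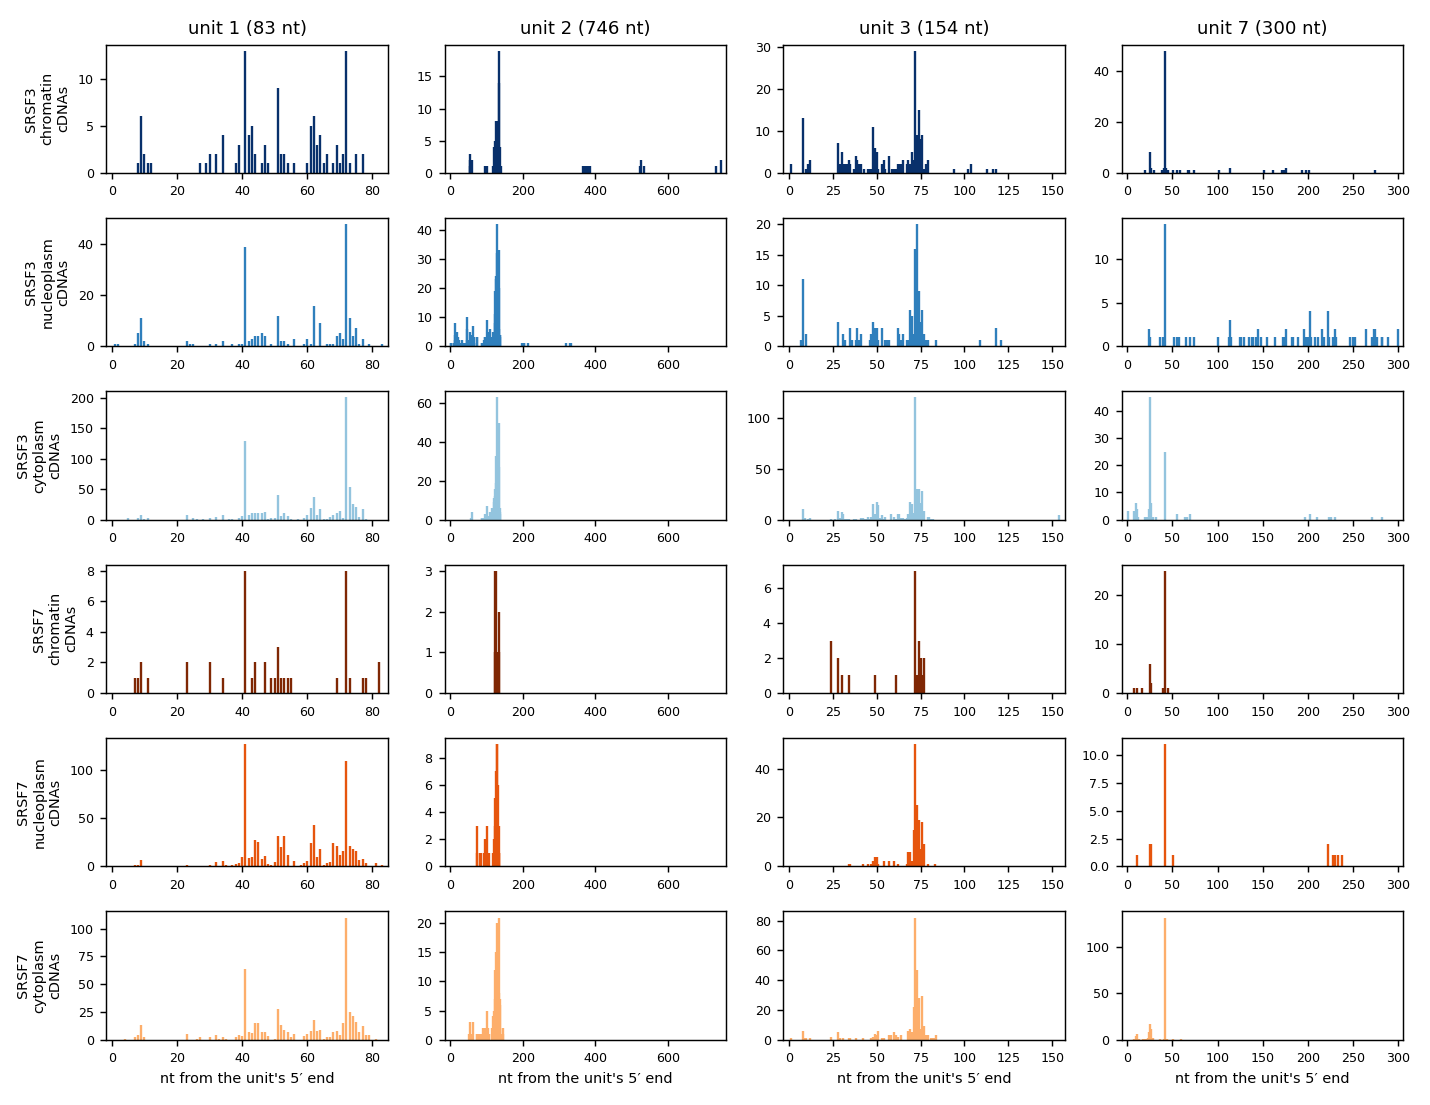
cDNAs per nucleotide along units 1, 2, 3 and 7, plotted by distance from the unit's 5′ end in nt, with 1 row per protein and fraction and a separate vertical scale in each panel. The same nucleotides lead in most rows, at 41 and 72 nt in unit 1, near 130 nt in unit 2, at 72 nt in unit 3 and at 42 nt in unit 7, and SRSF3 cytoplasm is highest at 25 nt in unit 7.

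Over all units with at least 20 cDNAs in both lists, agreement of the highest nucleotide was partial, and was above that of the genome in some comparisons and below it in others. Within SRSF3 it was identical in 24 of 53 units (45.3%) between chromatin and nucleoplasm, in 20 of 45 (44.4%) between chromatin and cytoplasm, and in 16 of 47 (34.0%) between nucleoplasm and cytoplasm. The same shares over all units of the genome were 37.8%, 41.0% and 43.2%. For SRSF7 it was identical in 7 of 38 units (18.4%) between nucleoplasm and cytoplasm, where the genome had 25.3%, and 6 and 7 units reached the minimum in the comparisons with chromatin. Between the proteins it was identical in 14 of 41 units (34.1%) in nucleoplasm and in 13 of 41 (31.7%) in cytoplasm, where the genome had 26.9% and 33.0%. In chromatin it was identical in 7 of 8 units, where the genome had 35.8%. Of 4659 bound nucleotides in the windows, 98 were listed in all 6 lists, which is 2.10%, and these lay in 28 units, with 17 of them in unit 4. The same share over the genome is not given here, so 2.10% cannot be read as low or high.

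With every listed position counted, positions of the windows were shared between fractions more often than positions of the whole lists, which for SRSF7 against chromatin did not hold for high positions. Of SRSF3 cytoplasm positions in the windows, 87.5% (85.7 to 89.1) lay within 5 nt of an SRSF3 chromatin position, where 55.4% of all positions of that list did. The value was 90.5% (88.9 to 91.9) against nucleoplasm, and 59.7% for the whole list. Of SRSF7 cytoplasm positions, 45.7% (43.1 to 48.3) lay near an SRSF7 chromatin position and 73.5% (71.1 to 75.7) near a nucleoplasm position, where the whole list had 19.8% and 32.8%. Nucleoplasm positions lay near chromatin positions at 79.9% for SRSF3 and 47.4% for SRSF7, with 57.7% and 26.7% for the whole lists.

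The sharing depended on the number of cDNAs at a position. SRSF3 cytoplasm positions with a single cDNA lay near a chromatin position at 84.9% in the windows and 49.0% in the whole list, and positions with at least 6 cDNAs at 97.2% and 79.6%. For SRSF7 cytoplasm the corresponding values were 35.1% and 13.3%, and 84.6% and 78.4%. SRSF7 nucleoplasm positions with at least 6 cDNAs ran the other way, with 86.3% near a chromatin position in the windows and 90.4% in the whole list. With at least 3 cDNAs required in both lists, the order also turned for SRSF7 against chromatin. Cytoplasm positions were then near a chromatin position at 25.3% in the windows and 48.5% in the whole list, and nucleoplasm positions at 25.3% and 56.5%. The windows' positions were packed into 17959 nt, and the part of this density in the sharing was not tested. Sharing also depends on the size of the second list. When all lists were thinned to the smallest total, SRSF3 cytoplasm positions lay near chromatin positions at 59.8%, and SRSF7 ones at 48.5%. The whole lists then had 39.4% and 21.8%.

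The proteins also shared positions with each other. SRSF7 positions of the windows lay within 5 nt of an SRSF3 position of the same fraction at 93.6% (90.5 to 95.9) for chromatin, 86.0% (83.8 to 87.9) for nucleoplasm and 75.8% (73.5 to 78.0) for cytoplasm. The whole lists had 51.3%, 25.9% and 21.9%. The ranks of the units followed each other as well. Over the 89 units with at least 20 cDNAs in all, Spearman's rho between the proteins was 0.57 in chromatin, 0.79 in nucleoplasm and 0.76 in cytoplasm. Within SRSF3 it was 0.78 between chromatin and nucleoplasm, 0.70 between chromatin and cytoplasm and 0.83 between nucleoplasm and cytoplasm. These are descriptions across units, which share their RNA and its abundance in all lists.

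**Figure D5:**
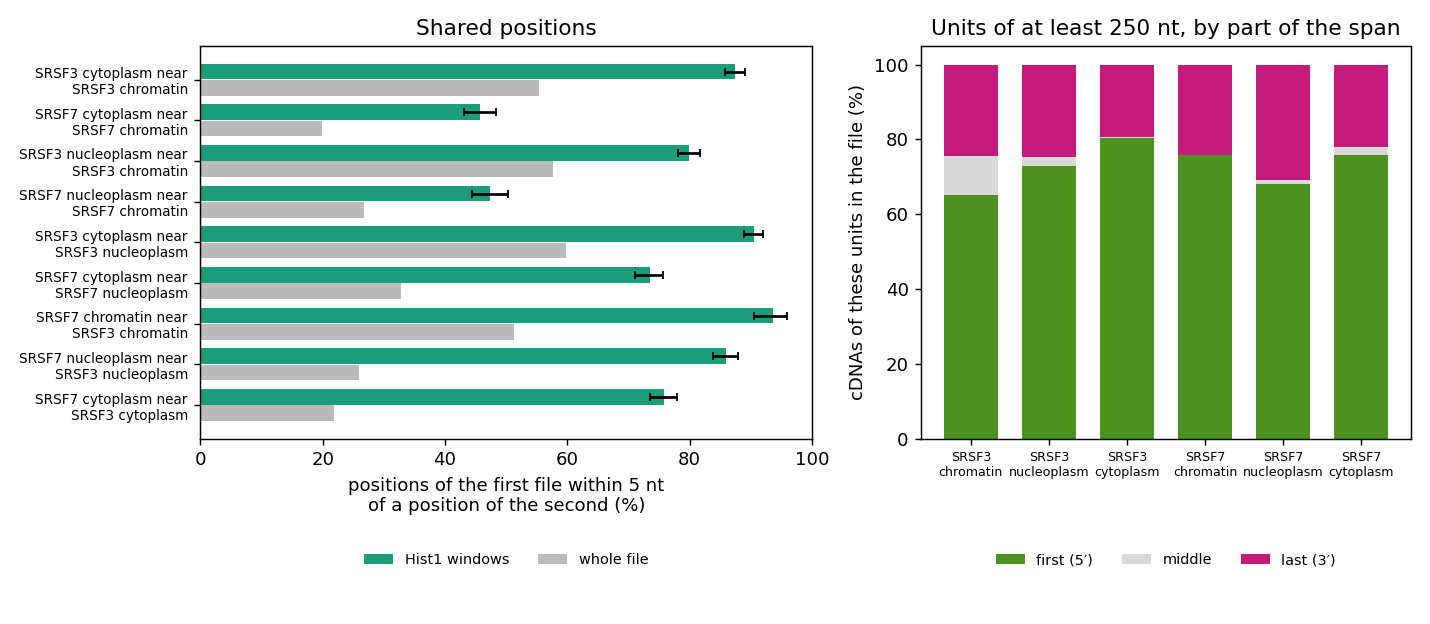
Left, positions of a list within 5 nt of a position of another list (%), for the Hist1 windows (green, with exact 95% counting intervals) and for the whole list (grey); right, cDNAs of the 24 units of at least 250 nt by part of the span from 5′ to 3′ (%). All 9 green bars exceed their grey partners, and the first part holds between 65.1% and 80.4% of the cDNAs in every list.

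In the 24 units of at least 250 nt, cDNAs lay at the ends and mostly at the 5′ end. With the span of each unit cut into 3 equal parts, the first part held 65.1%, 72.8% and 80.4% of the SRSF3 cDNAs. It held 75.7%, 68.2% and 75.8% of the SRSF7 cDNAs. The last part held between 19.4% and 30.8%. The middle part held 10.4% in SRSF3 chromatin, 2.42% in SRSF3 nucleoplasm, 0.248% in SRSF3 cytoplasm, and at most 2.20% in the SRSF7 lists. Of the units with 20 cDNAs in a list, the first part led in 16 of 23 in SRSF3 chromatin, 14 of 21 in SRSF3 nucleoplasm, and 13 of 17 in SRSF3 cytoplasm, SRSF7 nucleoplasm and SRSF7 cytoplasm.

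The sparse middle depended on how units were joined. The largest gap inside a long unit had a median of 143 nt, and in 19 of the 24 units it was over 100 nt, so most long units are separate stretches joined across a gap. With joining at gaps of up to 100 nt, 8 units of at least 250 nt remained. In these the first part held between 63.6% and 87.5%, and the middle part 14.9% in SRSF3 chromatin, 11% in SRSF3 nucleoplasm, 1.89% in SRSF3 cytoplasm and between 2.94% and 4.89% in the SRSF7 lists. Of the 17 long units listed in all 6 lists, 10 had their highest position in the first part in every list and 3, units 6, 14 and 20, in the last part in every list. It lay between 327 and 354 nt from the 5′ end of the 360 nt of unit 6 and between 702 and 749 nt of the 813 nt of unit 14. Unit 20 is named for this alone.

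Each unit was paired with its nearest unit on the opposite strand, whatever the depth of that unit. In 4 of these pairs both units had at least 20 cDNAs and lay within 500 nt without overlapping, with gaps of 202 to 440 nt. A pair with a shallower unit nearer to both would not be counted. All 4 were divergent, with the 5′ ends facing each other, and none was convergent. The same counts over the genome are not given here, so this orientation cannot be read as a trait of the windows. The pairs were units 3 and 78, 25 and 86, 69 and 90, and 81 and 83, named here for their spacing.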

How the data were processed

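Per the labels, Fr-iCLIP was done on fractions of P19 cells, and replicates were pooled by the authors before deposit. A deposited entry is 1 nt wide, and its signed whole number gives a cDNA count, whose sign was taken as the strand although no header says so. Per the file headers, the authors kept positions with a false discovery rate below 0.05 against 100 permutations (15 nt neighbourhood, regions separately), but SRSF7 track names add a term for joint treatment of regions. The build was mm9, per the submitters' processing notes. No source used here gives the aligner or the duplicate removal.

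Intervals are Clopper-Pearson for shares and conditional exact binomial for their ratios, and ratios of folds are conditional odds ratios. Units were compared over the whole genome. Named are the 15 units of highest mean share and the highest and lowest called unit of each of the 9 comparisons, others being said to be outside this rule. The windows, the rule and the comparisons were chosen with earlier results of these data known. The unit comparison was tested on simulated data. The tools were Python 3.11.15, scipy 1.17.1, numpy 2.4.6, pandas 2.3.3 and matplotlib 3.10.9.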

Additional observations from a re-analysis of the deposited data

How the results depend on the processing

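Within each protein, the ratios of chromatin to the other fractions kept their direction and their call under every alternative run, but their size moved. The SRSF7 rise from chromatin to nucleoplasm was 1.87-fold with positions counted and 11.9-fold with at least 3 cDNAs, and that to cytoplasm 2.22-fold and 11.7-fold. The SRSF3 rise to cytoplasm was 13.4-fold with mitochondrial RNA and the 10 highest units left out, and other settings gave 6.96 to 10.2. That to nucleoplasm ranged from 4.54 to 7.51. SRSF3 nucleoplasm over cytoplasm and SRSF3 over SRSF7 in cytoplasm also kept direction and call. Leaving out unit 1, an alternative added after seeing the data, changed no direction or call. With positions of at least 3 cDNAs, SRSF7 nucleoplasm over cytoplasm lost its call (log2 0.025, -0.059 to 0.109). So did SRSF3 over SRSF7 in nucleoplasm (0.044, -0.039 to 0.128). SRSF3 over SRSF7 in chromatin lost its call with thinned lists (0.15, -0.013 to 0.315). It also did so with mitochondrial RNA and the 10 highest units left out (-0.11, -0.234 to 0.017). With positions counted it reversed (-0.88, -1.04 to -0.72). The causes were not tested.

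Window shares, with SRSF3 first and chromatin, nucleoplasm and cytoplasm in order, were 0.254%, 1.91%, 2.60%, 0.469%, 0.878% and 1.04% of positions. Without the mitochondrial genome and the 10 highest units they were 0.317%, 2.36%, 4.25%, 0.342%, 1.38% and 1.88%. With at least 3 cDNAs they moved to 0.314% and 1.42% for SRSF3 chromatin and nucleoplasm and to 0.116%, 1.38% and 1.36% for SRSF7. Thinning moved SRSF3 chromatin to 0.260%.

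Units beyond 2-fold fell with stricter minimums, which leave fewer units to compare. Counts follow as called of compared, with the share called over the genome, higher and lower together, in parentheses. The setting of 20 cDNAs counted both lists together and dropped the minimum of 10 in each. For SRSF3 chromatin against cytoplasm they were 22 of 33 (61.4%) with at least 3 cDNAs, 13 of 19 (58.1%) with thinning and 11 of 13 (64.5%) with at least 200 cDNAs. Against nucleoplasm they were 22 of 31 (48.7%), 16 of 19 (37.3%) and 15 of 15 (40.4%). For SRSF3 nucleoplasm against cytoplasm they were 0 of 31 (7.84%) with positions counted and 4 of 15 (39.8%) with at least 200 cDNAs. For SRSF7 chromatin against cytoplasm they were 5 of 7 (50.7%) with at least 3 cDNAs, 1 of 5 (28.7%) with positions counted, 32 of 50 (57.6%) with at least 20 cDNAs and 5 of 5 (63.3%) with at least 200. Against nucleoplasm they were 3 of 5 (52.8%), 0 of 2 (12.4%), 33 of 46 (38.4%) and 2 of 2 (55.6%). For SRSF7 nucleoplasm against cytoplasm they were 0 of 19 (23.9%) with positions counted, 7 of 58 (40%) with at least 20 and 2 of 8 (66.8%) with at least 200 cDNAs. For SRSF3 against SRSF7 in chromatin they were 1 of 6 (33.3%) with at least 3 cDNAs, 0 of 4 (35.8%) with thinning, 5 of 18 (37.8%) with mitochondrial RNA and the 10 highest units left out, 9 of 69 (18.7%) with at least 20 and 0 of 2 (36.9%) with at least 200 cDNAs. In nucleoplasm they were 4 of 20 (41.5%) with at least 3 cDNAs, 3 of 28 (19.0%) with positions counted, 15 of 62 (41.4%) with at least 20 and 2 of 6 (49.1%) with at least 200. In cytoplasm they were 5 of 28 (27.1%) with at least 3 cDNAs, 4 of 19 (16.9%) with positions counted and 5 of 11 (37.2%) with at least 200. Joining at 100 or 500 nt changed no count by over 1.5 times.

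Shared positions, in the order SRSF3 and SRSF7 cytoplasm near chromatin, SRSF3 and SRSF7 nucleoplasm near chromatin, and SRSF3 and SRSF7 cytoplasm near nucleoplasm, were 78.6%, 25.3%, 74.5%, 25.3%, 82.2% and 67.3% with at least 3 cDNAs. The whole lists then had 64.3%, 48.5%, 70.1%, 56.5%, 72.9% and 53.2%, so the windows lay below the list for both SRSF7 comparisons with chromatin. At the identical nucleotide the windows had 50.3%, 14.3%, 42.9%, 16.3%, 53.9% and 38.6%, and the whole lists 35.8%, 10.9%, 35.0%, 13.8%, 36.1% and 15.3%. Within 15 nt the windows had 93.2%, 55.3%, 87.5%, 59.1%, 94.4% and 80.9%, and the whole lists 60.4%, 23.5%, 63.6%, 32.1%, 65.3% and 39.3%. Thinning moved the first 3 to 59.8%, 48.5% and 51.4%, where the whole lists had 39.4%, 21.8% and 39.8%.

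No paired analysis was possible because replicates were pooled in the deposited lists, and no replicate could be left out for the same reason. The 55 units under 20 cDNAs carry too few counts for a comparison.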
